A study of Mus musculus with 8 samples.

Results

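The BCL2 family decides whether a cell passes through the mitochondrial step of apoptosis, and 10 of its mouse genes were followed here across sorted eosinophils: the pro-survival genes Bcl2a1a, Bcl2a1b, Bcl2a1d, Mcl1, Bcl2 and Bcl2l1, the pore-forming gene Bax, and the BH3-only genes Bcl2l11, Bbc3 and Pmaip1. They were picked by symbol, out of 54446 gene rows, after the Ensembl identifiers of the count tables had been matched to mouse symbols, and all 10 were found. The study profiled eosinophils from a mouse asthma model, with a title that concerns the dependence of resident lung eosinophils on IL-5. The 8 CEL-Seq libraries, whose reads fall near the 3′ ends of transcripts, came from C57BL/6 mice and formed 3 groups by title: SiglecFhi/CD101+ eosinophils (n = 2), Siglec-Fint/CD101- eosinophils (n = 2) and resident eosinophils (n = 4, replicates 3 to 6). Siglec-F is a lectin of the eosinophil surface and CD101 is an immunoglobulin-like surface protein. No treatment, age, sex, genotype or animal is given in the labels for any library, so these cannot be told apart from the groups. Nothing says that replicates came from separate mice, so a p-value here weighs a difference against library-to-library spread that could be purely technical.

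In healthy cells, pro-survival proteins such as MCL1, BCL-2, BCL-XL (the product of Bcl2l1) and A1 (the product of the Bcl2a1 genes) hold BAX and its relative BAK in check at the outer mitochondrial membrane. BH3-only proteins such as BIM (Bcl2l11), PUMA (Bbc3) and NOXA (Pmaip1) occupy the groove of the pro-survival proteins, after which BAX and BAK open the membrane, cytochrome c leaves and caspases are activated. Granulocytes are short-lived, and the cytokines IL-5, IL-3 and GM-CSF prolong eosinophil life.

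Total counts ranged from 1513517 to 3109428 in SiglecFhi/CD101+ libraries, from 1517159 to 2990294 in Siglec-Fint/CD101- libraries and from 5600610 to 11583550 in resident libraries. Mitochondrial genome transcripts took 70.6% and 82.2% of the counts in SiglecFhi/CD101+ libraries, 69.9% and 83.9% in Siglec-Fint/CD101- libraries and 38.6% to 61.8% in resident libraries, so that 444902 to 552121 counts in each subset library and 2137819 to 5296468 in each resident library came from other genes. A count of 3, taken as the limit of detection of a library, equalled 1.58 and 1.81 CPM (counts scaled to a common library size by TMM) in SiglecFhi/CD101+, 1.86 and 2.18 CPM in Siglec-Fint/CD101- and 0.199 to 0.500 CPM in resident libraries. At least 1 count was found for 10834 and 9238 genes in SiglecFhi/CD101+, 7356 and 8514 in Siglec-Fint/CD101- and 12700 to 15997 in resident libraries. The labelled cell type was only partly visible in its markers. Of 11 eosinophil markers, Epx, Prg3 and Il5ra had no count in either subset, Ear6 had none in SiglecFhi/CD101+ and Siglecf none in Siglec-Fint/CD101- libraries. In resident libraries Prg3 also had none, Il5ra had 1, 0, 0 and 57 counts, and Ear6 had 0, 46, 0 and 0. Not all markers were low in the subsets. Prg2 was at 38.4 and 233 CPM in SiglecFhi/CD101+, 0.725 and 1.86 CPM in Siglec-Fint/CD101- and 4.94 to 15.8 CPM in resident libraries. Alox15 was at 40.0 and 59.8 CPM, 10.2 and 45.9 CPM, and 0.167 to 14.4 CPM in the same order. The summed level of the 11 was 148 and 446 CPM in SiglecFhi/CD101+, 163 and 295 CPM in Siglec-Fint/CD101- and 187 to 454 CPM in resident libraries. Cd101, a gene that names the sort, had 2 counts and 1 count (1.05 and 0.604 CPM, under the limit of detection) in SiglecFhi/CD101+ libraries, 0 and 1 counts in Siglec-Fint/CD101- libraries, and 4.17 to 33.4 CPM in resident libraries. Cd101 was under the limit of 3 counts in every subset library, so its RNA could not speak for or against the CD101 labels. Siglecf, the other gene that names the sort, had 19 and 44 counts in SiglecFhi/CD101+ and 0 and 0 in Siglec-Fint/CD101- libraries. Its order in the subsets was that of the labels. The group names below repeat the labels only. Epx, the eosinophil peroxidase gene, had 25 counts, all in resident replicate 5. Summed markers of T and NK cells were 59.8 and 155 CPM in SiglecFhi/CD101+, 130 and 148 CPM in Siglec-Fint/CD101- and 9.01 to 21.3 CPM in resident libraries, with 3, 3 and 1 of the 9 markers at 0. Summed neutrophil markers were 309.6 and 1088 CPM, 595 and 1530 CPM, and 157 to 497 CPM in the same 3 groups, with 5, 4 and 1 of the 12 markers at 0. B and plasma cell markers summed to 163 and 322 CPM in SiglecFhi/CD101+, 164 and 350.3 CPM in Siglec-Fint/CD101- and 33.0 to 147 CPM in resident libraries, without overlap between either subset and resident libraries, and with 0, 1 and 0 of the 7 markers at 0. Macrophage markers summed to 948 and 1035 CPM, 1166 and 1688 CPM, and 975 to 1551 CPM in the 3 groups, above the eosinophil sum in all 8 libraries, with 0 of the 11 markers at 0 in any group. Epithelial markers summed to 4201 and 4526 CPM, 3936 and 7359 CPM, and 1133 to 13182 CPM in the 3 groups, with 1, 0 and 0 of the 9 markers at 0. This was above the eosinophil sum in all 8 libraries, and highest in resident replicate 5. Endothelial and fibroblast markers summed to 817 and 960 CPM, 660 and 853 CPM, and 167 to 975 CPM, with 0 of the 8 markers at 0 in any group. Dendritic cell markers were not higher in the subsets. They summed to 105 and 196 CPM in SiglecFhi/CD101+, 220 and 223 CPM in Siglec-Fint/CD101- and 187 to 441 CPM in resident libraries. Of these 8 markers, 0 were at 0 in any group. In a bulk sample, fewer cells of a type and less RNA per cell cannot be told apart, and the part of these markers, of mitochondrial RNA and of depth in the values below was not tested.

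The 3 Bcl2a1 paralogs are near copies of one another, and how far their reads can be told apart sets how their counts can be read. All 3 lie on chromosome 9 (GRCm38): Bcl2a1a (ENSMUSG00000102037) at 88956900 to 88962419 on the plus strand, Bcl2a1b (ENSMUSG00000089929) at 89199209 to 89207827 on the plus strand, and Bcl2a1d (ENSMUSG00000099974) at 88723285 to 88731914 on the minus strand. Their coding parts, 519 bases each, differ at 12 positions. To show how little separates them, coding bases 1 to 96, which hold 7 of those positions, and coding bases 301 to 420, nearer to the 3′ end and holding 4, are printed from the GENCODE M21 transcripts, 5′ to 3′ on the strand of the gene, with the positions that differ between any of the 3 in capitals.
Bcl2a1a bases 1 to 96, chr9:88957051-88957146: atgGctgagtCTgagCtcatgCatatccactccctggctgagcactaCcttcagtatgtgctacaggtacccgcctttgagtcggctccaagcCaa
Bcl2a1b bases 1 to 96, chr9:89199360-89199455: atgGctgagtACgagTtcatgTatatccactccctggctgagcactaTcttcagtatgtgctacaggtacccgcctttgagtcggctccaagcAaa
Bcl2a1d bases 1 to 96, chr9:88731624-88731719: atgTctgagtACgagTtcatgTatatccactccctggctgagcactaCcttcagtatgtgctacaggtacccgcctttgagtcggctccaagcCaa
Bcl2a1a bases 301 to 420, chr9:88957351-88957470: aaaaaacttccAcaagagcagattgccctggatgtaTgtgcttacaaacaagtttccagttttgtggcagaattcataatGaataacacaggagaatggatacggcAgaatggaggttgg
Bcl2a1b bases 301 to 420, chr9:89199660-89199779: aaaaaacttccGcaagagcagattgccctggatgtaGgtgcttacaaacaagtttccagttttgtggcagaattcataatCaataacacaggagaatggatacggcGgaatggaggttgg
Bcl2a1d bases 301 to 420, chr9:88731300-88731419: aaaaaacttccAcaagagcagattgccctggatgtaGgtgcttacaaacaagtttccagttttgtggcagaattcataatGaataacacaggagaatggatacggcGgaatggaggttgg

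Within the last 300 bases of the transcripts, where CEL-Seq reads fall, Bcl2a1a and Bcl2a1d were 99.3% identical, Bcl2a1b and Bcl2a1d 99.3% and Bcl2a1a and Bcl2a1b 98.7%. Of the 251 windows of 50 bases in that end, 64.5% of those of Bcl2a1a, 74.1% of those of Bcl2a1b and 94.8% of those of Bcl2a1d were also present, base for base, in another of the 3 transcripts. Bcl2a1b further shares 401 of its 817 exonic bases, 54 of them among the last 300, with exons of Gm29094, a gene annotated on the same strand, which had 0 counts in all 8 libraries. The counts of single paralogs are therefore uncertain, and their sum is given beside them. The sum is free of how shared reads were split, but not of a loss of such reads, whose handling was not given.

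The Bcl2a1 genes encode the A1 pro-survival protein of leukocytes, and Bcl2a1a, Bcl2a1d and the paralog sum averaged highest in resident libraries. Bcl2a1a was at 26.9 and 47.7 CPM in SiglecFhi/CD101+ libraries, 13.1 and 0.620 CPM in Siglec-Fint/CD101- libraries, and 171, 112, 33.9 and 108 CPM in resident libraries. Both Siglec-Fint/CD101- values lay below every resident value, whereas the higher SiglecFhi/CD101+ value lay above resident replicate 5. The log2 fold change of Bcl2a1a was -1.50 ± 0.99 (SE) for SiglecFhi/CD101+ against resident (adjusted p = 0.434), -3.97 ± 1.17 for Siglec-Fint/CD101- against resident (adjusted p = 0.283) and 2.47 ± 1.16 for SiglecFhi/CD101+ against Siglec-Fint/CD101- libraries (adjusted p = 0.279), by the quasi-likelihood test of edgeR, adjusted over 11828 genes by Benjamini and Hochberg's method. None of these passed the threshold of 0.05. The middle one is not settled between tools, since DESeq2 gave -3.60 with an adjusted p of 0.0255, and edgeR without its filter on low counts gave -4.03 with 0.0433. With 1 library left out in turn, the edgeR value for Siglec-Fint/CD101- against resident ran from -7.44 to -3.04. The -7.44 came without Siglec-Fint/CD101- replicate 1 and rested on 1 count of Bcl2a1a in replicate 2.

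Bcl2a1d had 4 counts in each of 3 subset libraries and 32 in the other. It was at 2.11 and 2.42 CPM in SiglecFhi/CD101+ libraries (4 counts each), 23.2 and 2.48 CPM in Siglec-Fint/CD101- libraries, and 56.7, 27.6, 7.30 and 21.7 CPM in resident libraries. Both SiglecFhi/CD101+ values and that of Siglec-Fint/CD101- replicate 2, which had the same count, were below every resident value, and Siglec-Fint/CD101- replicate 1 lay within the resident range. The log2 fold changes were -3.63 ± 1.56 for SiglecFhi/CD101+ against resident, -1.14 ± 1.33 for Siglec-Fint/CD101- against resident and -2.48 ± 1.59 between the subsets, at adjusted p of 0.270, 0.674 and 0.400 by edgeR. The last ran from -3.43 to -0.17 with 1 library left out. Bcl2a1b had 9 counts in Siglec-Fint/CD101- replicate 1 and 0 in the other libraries, and it was too low to be tested. Bcl2a1c, a further copy on the same chromosome, had 0 counts throughout.

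Summed over the 3 paralogs, Bcl2a1 RNA was at 29.0 and 50.2 CPM in SiglecFhi/CD101+ libraries, 42.8 and 3.10 CPM in Siglec-Fint/CD101- libraries, and 227, 139, 41.2 and 130 CPM in resident libraries. The groups overlapped through resident replicate 5. With the paralogs fitted as 1 gene, the log2 fold change was -1.76 ± 0.96 for SiglecFhi/CD101+ against resident (adjusted p = 0.350), -2.56 ± 1.01 for Siglec-Fint/CD101- against resident (adjusted p = 0.295) and 0.80 ± 1.04 between the subsets (adjusted p = 0.725), by edgeR. The last of these was -0.19 without Siglec-Fint/CD101- replicate 2.

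The split of the counts among the paralogs needs no scaling between libraries, but it depends on how reads shared by paralogs were handled, which was not given. Bcl2a1a made up 92.7% (51 of 55 counts) and 95.2% (79 of 83) in SiglecFhi/CD101+ libraries, 30.5% (18 of 59) and 20.0% (1 of 5) in Siglec-Fint/CD101- libraries, and 75.1%, 80.2%, 82.3% and 83.3% of 592 to 1964 counts in resident libraries. The groups did not overlap, although the exact 95% binomial interval of the 5-count library ran from 0.505% to 71.6%. The share averaged 94.0% ± 1.73 for SiglecFhi/CD101+ (SD, n = 2), 25.3% ± 7.43 for Siglec-Fint/CD101- (SD, n = 2) and 80.2% ± 3.65 for resident libraries (SD, n = 4). A two-sided exact permutation test gave p = 0.133 for either subset against resident and p = 0.333 between the subsets, which is the smallest p that these group sizes allow in each case (adjusted 0.267, 0.267 and 0.400 over 6 comparisons of shares). This share, and that of Pmaip1 below, were chosen after their values were seen.

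**Figure D1:**
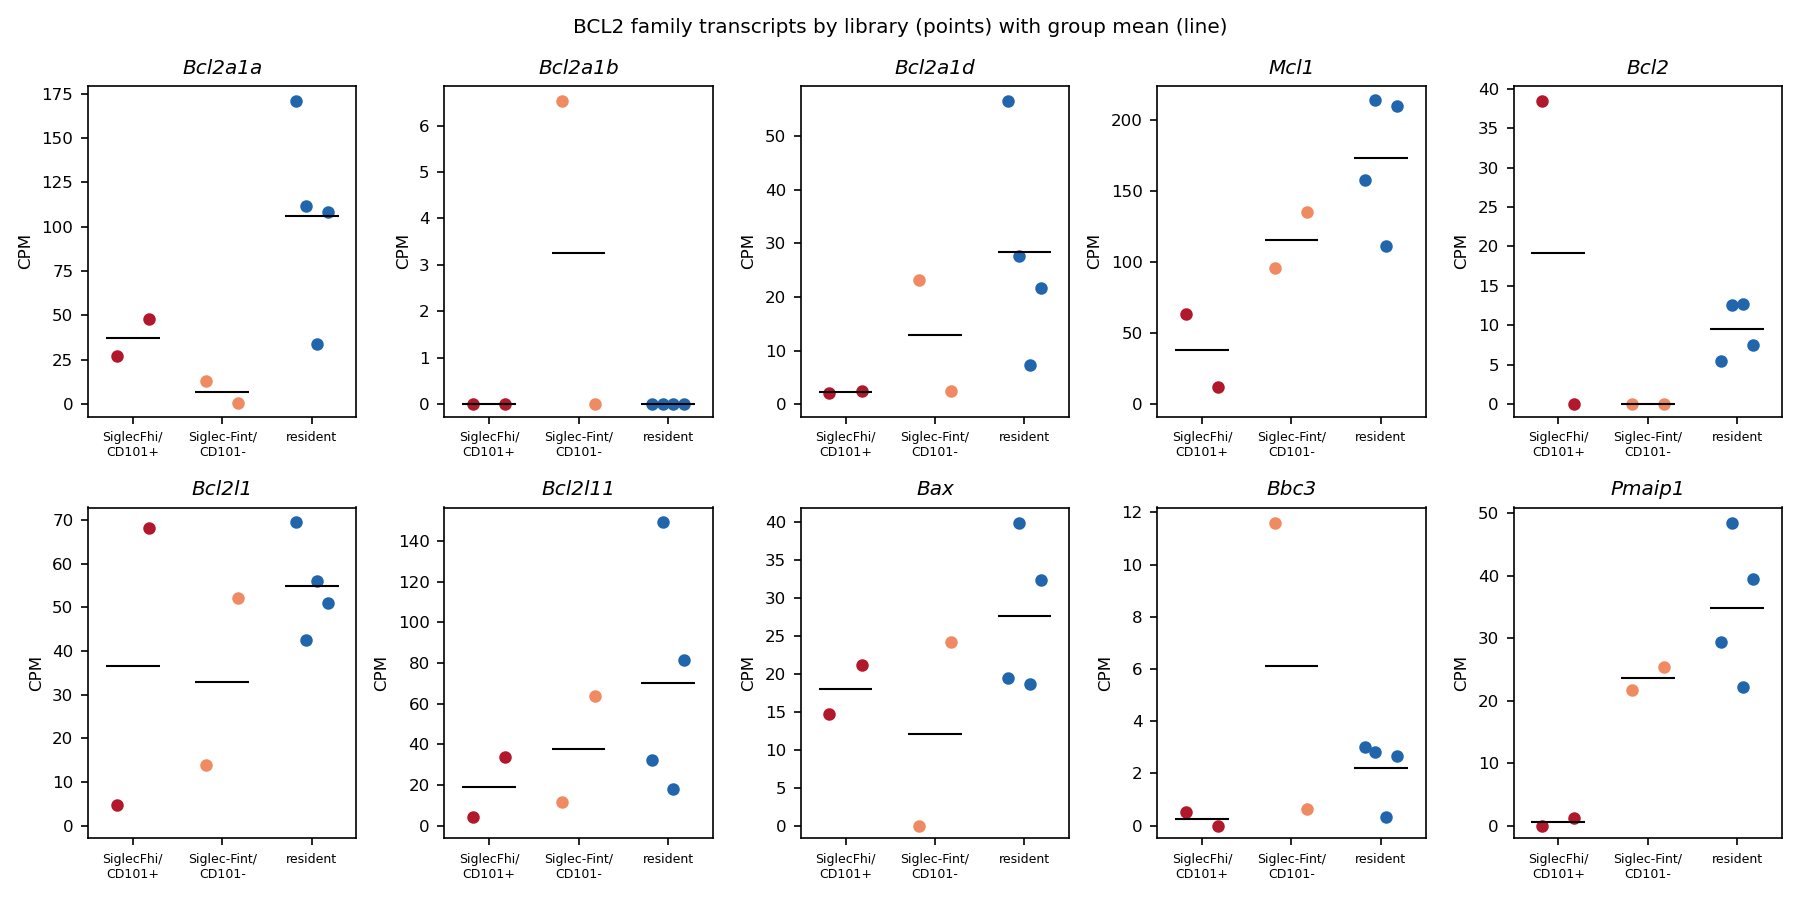
CPM of each BCL2 family gene (vertical axis, linear from 0) in SiglecFhi/CD101+, Siglec-Fint/CD101- and resident libraries, 1 point per library and a line at the group mean. Pmaip1 lies at 0 and 1.21 CPM in SiglecFhi/CD101+ libraries and above 21 CPM elsewhere, and Bcl2l1 and Bcl2l11 are spread widely within each subset.

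Mcl1, on chromosome 3 (95658788 to 95663176), encodes a short-lived pro-survival protein on which neutrophils depend. It was at 63.7 and 12.1 CPM in SiglecFhi/CD101+ libraries, 95.7 and 135 CPM in Siglec-Fint/CD101- libraries, and 158, 214, 111 and 209.9 CPM in resident libraries. The SiglecFhi/CD101+ libraries were the lowest of the 8, and the Siglec-Fint/CD101- libraries overlapped with resident ones. The log2 fold change was -2.19 ± 0.73 for SiglecFhi/CD101+ against resident (adjusted p = 0.214), -0.59 ± 0.67 for Siglec-Fint/CD101- against resident (adjusted p = 0.668) and -1.60 ± 0.78 between the subsets (adjusted p = 0.287), none past the threshold in edgeR. With 1 library left out in turn, the first ran from -3.92 to -1.54 and did not pass in any run (lowest adjusted p 0.0859 by edgeR).

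The tested genes closest to Mcl1 in pattern were sought by the root-mean-square difference of log2(CPM + 1), centred on each gene's mean over the 8 libraries. They were Brk1, a subunit of the WAVE actin-nucleation complex, at a difference of 0.204, Flna, the actin cross-linker filamin A, at 0.226, and Ckb, a brain-type creatine kinase, at 0.268, against a median of 1.58 over 10984 genes. Brk1 averaged 9.15 CPM in SiglecFhi/CD101+, 36.1 CPM in Siglec-Fint/CD101- and 51.4 CPM in resident libraries. A likeness sought over so many genes in 8 libraries is a description only. The same search could not be made for Bcl2a1b, which was not tested.

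Bcl2, the founding pro-survival gene of the family, was detected in 1 of the 4 subset libraries. It was at 38.4 and 0 CPM in SiglecFhi/CD101+ libraries (73 and 0 counts), 0 and 0 CPM in Siglec-Fint/CD101- libraries, and 5.50, 12.6, 12.7 and 7.48 CPM in resident libraries. One SiglecFhi/CD101+ library was above all others and its partner had no count, so the group straddled the resident range. The log2 fold change for SiglecFhi/CD101+ against resident was 1.01 ± 1.61 (adjusted p = 0.793 by edgeR), and it turned negative with library totals alone (-0.19). Against a limit of 3 counts over the group, Bcl2 was at least 10.1-fold lower in Siglec-Fint/CD101- than in resident libraries and at least 20.5-fold higher in SiglecFhi/CD101+ than in Siglec-Fint/CD101- libraries, in this last case through a single library. Neither passed in edgeR (adjusted p = 0.295 and 0.239). For the subsets DESeq2 gave an adjusted p of 0.0250. Of the 9157 exonic bases of Bcl2, 558 lie opposite those of D630008O14Rik, and without a stated strand setting the reads of such a pair cannot be told apart.

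Bcl2l1, which encodes BCL-XL, showed no separation of the groups. It was at 4.74 and 68.3 CPM in SiglecFhi/CD101+ libraries, 13.8 and 52.1 CPM in Siglec-Fint/CD101- libraries, and 69.7, 42.6, 56.0 and 51.0 CPM in resident libraries. Resident libraries lay close together, while 1 library of each subset lay within their range and 1 far below it. The log2 fold changes were -0.58 ± 1.01, -0.74 ± 1.02 and 0.16 ± 1.14 in the 3 comparisons, in the order used above, with adjusted p of 0.812, 0.736 and 1.00 by edgeR. The first was 0.24 without SiglecFhi/CD101+ replicate 1 and -3.62 without SiglecFhi/CD101+ replicate 2.

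Bax, on chromosome 7 (45461697 to 45466898), encodes the effector that opens the outer membrane. It was at 14.7 and 21.2 CPM in SiglecFhi/CD101+ libraries, 0 and 24.2 CPM in Siglec-Fint/CD101- libraries, and 19.5, 39.9, 18.6 and 32.4 CPM in resident libraries. All groups overlapped. Its log2 fold change was -0.62 ± 1.36 for SiglecFhi/CD101+ against resident (adjusted p = 0.860), -1.19 ± 1.40 for Siglec-Fint/CD101- against resident (adjusted p = 0.681) and 0.57 ± 1.55 between the subsets (adjusted p = 0.932), by edgeR. Of its 1576 exonic bases, 192 are shared with Gm45808 on the same strand.

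Of the 3 BH3-only members, Pmaip1 had the largest fitted differences for SiglecFhi/CD101+ libraries. Pmaip1 (chromosome 18, 66458533 to 66465565) encodes NOXA, a p53 target that binds mainly MCL1 and A1. It was at 0 and 1.21 CPM in SiglecFhi/CD101+ libraries (0 and 2 counts), 21.8 and 25.4 CPM in Siglec-Fint/CD101- libraries (30 and 41 counts), and 29.3, 48.5, 22.1 and 39.5 CPM in resident libraries. The SiglecFhi/CD101+ libraries stood below the other 6, which overlapped with each other. With 2 counts over the group, the resident level was 63.0-fold the SiglecFhi/CD101+ level (exact 95% counting interval 17.4 to 521), and the Siglec-Fint/CD101- level was 42.2-fold (11.3 to 355). The fitted log2 fold changes were -5.85 ± 1.60 for SiglecFhi/CD101+ against resident (adjusted p = 0.146), -0.57 ± 1.12 for Siglec-Fint/CD101- against resident (adjusted p = 0.827) and -5.29 ± 1.63 between the subsets (adjusted p = 0.239), none past the threshold in edgeR. DESeq2 called the first (adjusted p = 0.000865) and the third (adjusted p = 0.00279).

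Set against Mcl1, whose product NOXA binds, Pmaip1 held a narrow range outside SiglecFhi/CD101+ libraries. In SiglecFhi/CD101+ libraries, Pmaip1 made up 0% (0 of 121, exact 95% binomial interval up to 3.00%) and 9.09% (2 of 22) of the counts of both genes. The share was 18.5% and 15.8% in Siglec-Fint/CD101- libraries, and 15.7%, 18.5%, 16.6% and 15.9% in resident libraries. The exact 95% binomial interval of the 22-count library ran from 1.12% to 29.2% and held the values of the other groups. Group means were 4.55% ± 6.43 (SD, n = 2), 17.2% ± 1.90 (SD, n = 2) and 16.7% ± 1.29 (SD, n = 4) in that order. By the two-sided exact permutation test p was 0.133 for SiglecFhi/CD101+ against resident, 0.800 for Siglec-Fint/CD101- against resident and 0.333 between the subsets (adjusted 0.267, 0.800 and 0.400), where 0.133 is the smallest possible against 4 libraries and 0.333 between 2 and 2.

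**Figure D2:**
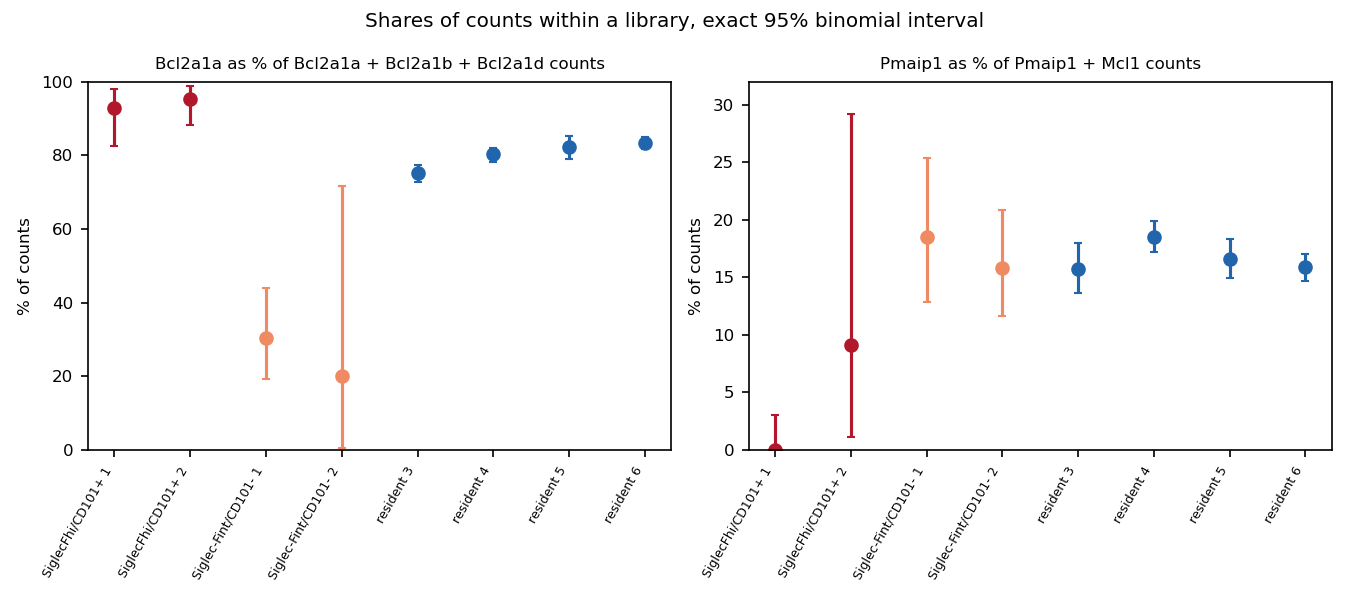
Percent of counts within each library (vertical axes from 0) for Bcl2a1a among the 3 Bcl2a1 paralogs, left, and for Pmaip1 among Pmaip1 and Mcl1 counts, right. Points are libraries and bars exact 95% binomial intervals, which cover counting error only: Bcl2a1a lies at 92.7% and 95.2% in SiglecFhi/CD101+, 30.5% and 20.0% in Siglec-Fint/CD101- and 75.1% to 83.3% in resident libraries.

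Bcl2l11, on chromosome 2 (128126038 to 128162547), encodes BIM, which binds all pro-survival members and is held down by survival cytokines. It was at 4.21 and 33.8 CPM in SiglecFhi/CD101+ libraries, 11.6 and 63.8 CPM in Siglec-Fint/CD101- libraries, and 32.2, 149, 18.1 and 81.7 CPM in resident libraries. Its spread within every group was wide, and as with Bcl2l1 replicate 2 was the higher library of each subset. The log2 fold change was -1.88 ± 1.16 for SiglecFhi/CD101+ against resident (adjusted p = 0.404), -0.90 ± 1.098 for Siglec-Fint/CD101- against resident (adjusted p = 0.694) and -0.98 ± 1.24 between the subsets (adjusted p = 0.713), by edgeR. The first ran from -4.16 to -1.105 with 1 library left out, and the last was 0.64 without Siglec-Fint/CD101- replicate 2.

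Bbc3, the gene of the p53-induced protein PUMA, was close to the limit of detection. It was at 0.527 and 0 CPM in SiglecFhi/CD101+ libraries (1 and 0 counts), 11.6 and 0.620 CPM in Siglec-Fint/CD101- libraries (16 counts and 1 count), and 3.00, 2.82, 0.348 and 2.65 CPM in resident libraries. The highest value came from a single Siglec-Fint/CD101- library. With 1 count over the group, the resident level was 7.29-fold the SiglecFhi/CD101+ level (exact 95% counting interval 1.279 to 291). No comparison passed, with adjusted p of 0.517, 0.680 and 0.352 by edgeR, and the log2 fold change of 1.46 ± 1.72 for Siglec-Fint/CD101- against resident was -1.86 without Siglec-Fint/CD101- replicate 1.

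Over the family, 9 of the 10 genes passed the filter on low counts, and 0 of these 9 were called in any of the 3 comparisons by edgeR. Among all 11828 genes tested, the share called was 0.0254% for SiglecFhi/CD101+ against resident, 0.0592% for Siglec-Fint/CD101- against resident and 0.00845% between the subsets. At an unadjusted p under 0.05, 3 members were lower and 0 higher in SiglecFhi/CD101+ against resident libraries (Bcl2a1d, Mcl1 and Pmaip1), where 13.1% of all genes were lower and 3.65% higher. In Siglec-Fint/CD101- against resident, 2 were lower and 0 higher (Bcl2a1a and Bcl2), with 13.8% and 1.9% of all genes. Between the subsets 1 was lower (Pmaip1) and 1 higher (Bcl2), with 7.96% and 9.98% of all genes. DESeq2 called 1 member, 1 member and 2 members in the 3 comparisons, where it called 7.67%, 5.52% and 10.7% of all genes. Without the filter on low counts, edgeR called 0, 1 and 0 of the 10 members, where it called 1.75%, 0.642% and 0.401% of all genes.

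Members whose groups did not overlap were counted in the same way. In SiglecFhi/CD101+ against resident, 3 of the 9 lay wholly below the resident range and 0 wholly above, against 27.4% and 6.73% of all genes. In Siglec-Fint/CD101- against resident, 2 lay wholly below and 0 above, against 29.2% and 4.47%. Between the subsets, 4 of the 9 lay wholly lower in SiglecFhi/CD101+ and 1 wholly higher, against 11.9% and 15.8%. Of those 4, Bcl2a1d was separated by 4 counts against 4 and Bbc3 by 1 count against 1, so that scaling alone set their order, which leaves Mcl1 and Pmaip1. The median log2 fold change of the 9 was -1.88 in SiglecFhi/CD101+ against resident, -0.90 in Siglec-Fint/CD101- against resident and -0.98 between the subsets, beside -0.72, -0.997 and 0 for all genes. A negative fold change was found for 8, 8 and 5 of the 9, and for 63.9%, 66.9% and 43.8% of all genes. The comparisons against resident libraries share those 4 libraries.

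**Figure D3:**
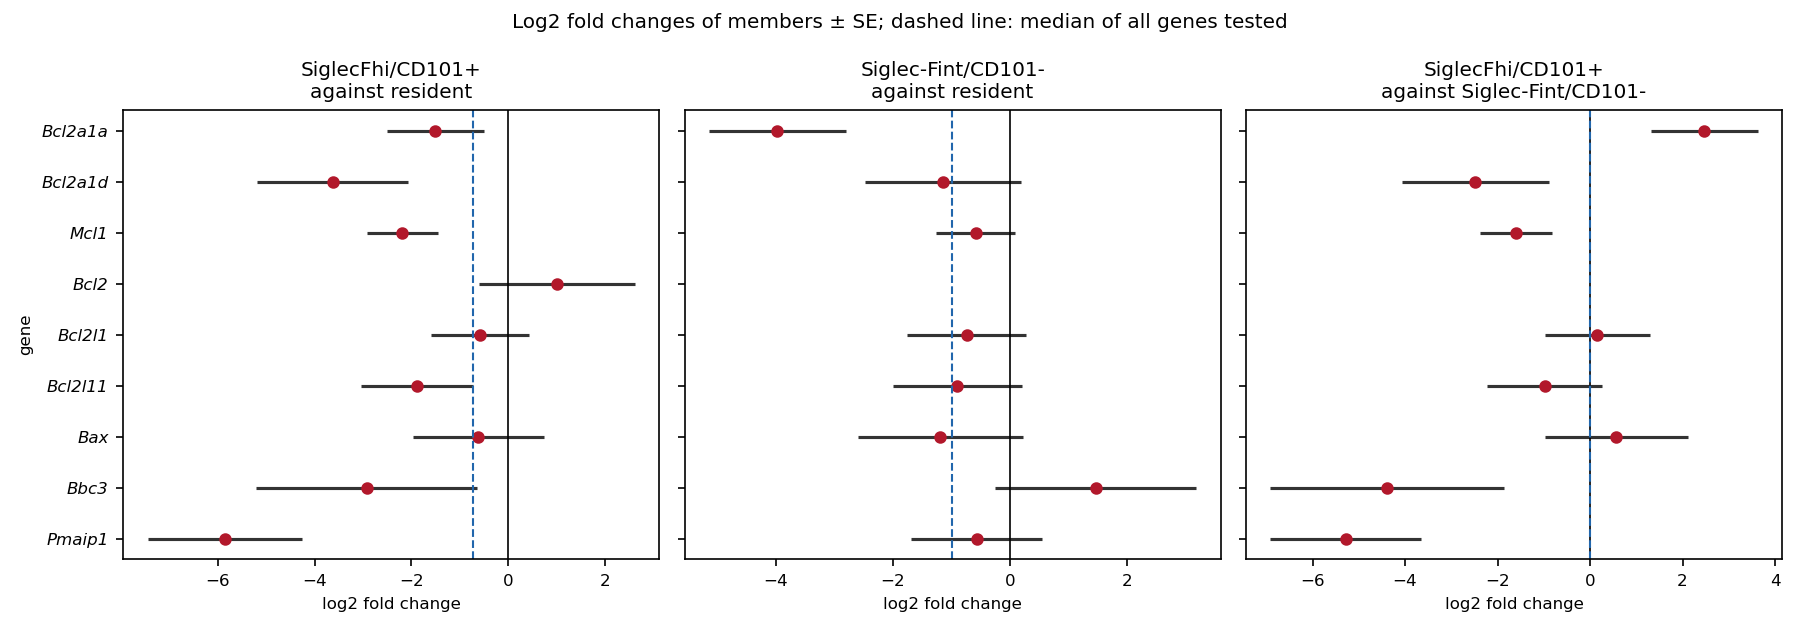
Log2 fold change (horizontal axis) of each tested BCL2 family gene in the 3 comparisons, with bars of 1 SE, a solid line at 0 and a dashed line at the median of all genes tested. Genes with 0 counts in a compared group (Bcl2 in Siglec-Fint/CD101- libraries) are left out, and Pmaip1 lies at -5.85 and -5.29 in both comparisons of SiglecFhi/CD101+ libraries.

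**Figure D4:**
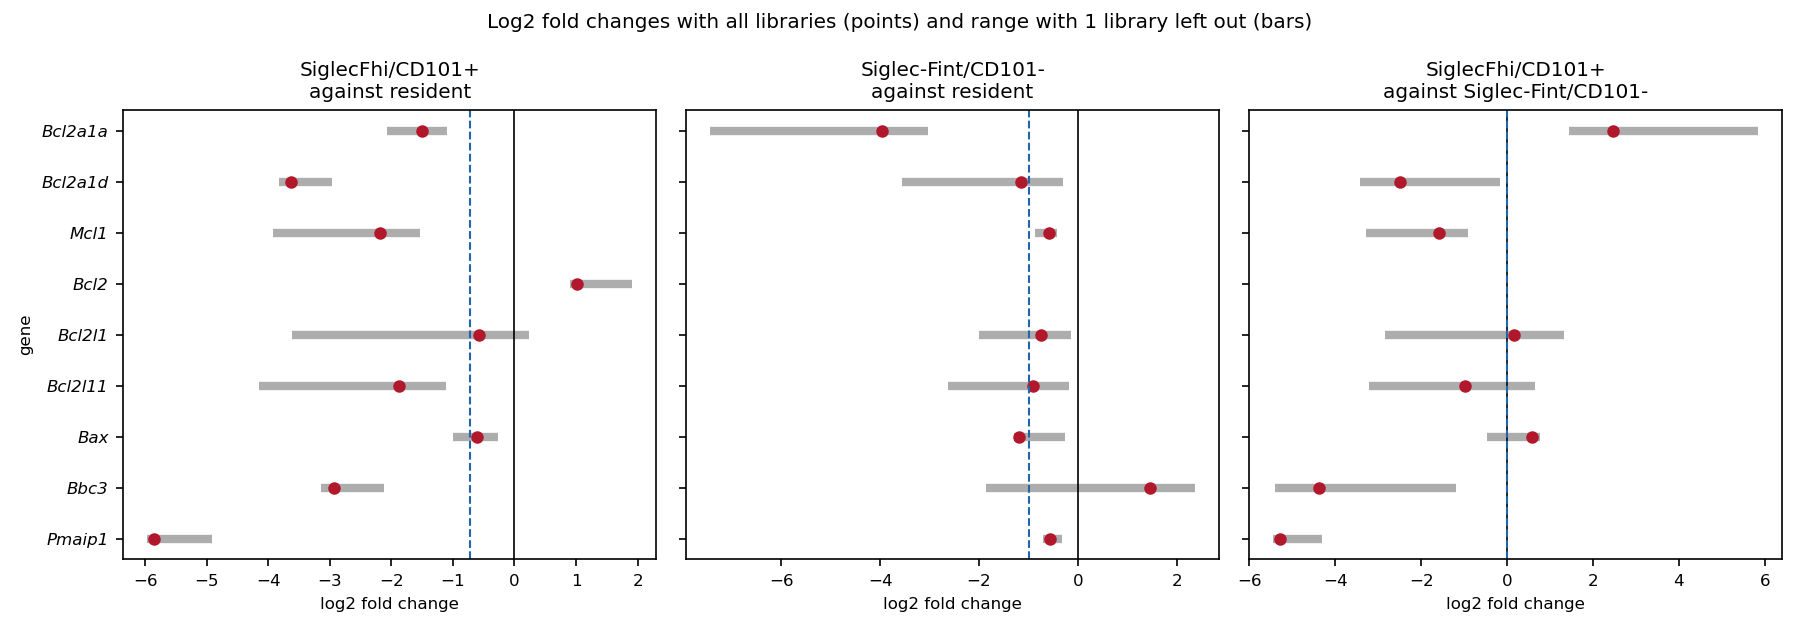
The same log2 fold changes (points, horizontal axis) with the range of values when each of the 8 libraries is left out in turn (grey bars), omitting fits in which a compared group kept no count of the gene. The bars of Mcl1 and Pmaip1 stay below 0 in all 3 panels, and those of Bcl2l1 cross 0 in the comparisons of SiglecFhi/CD101+ libraries.

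The rest of the apoptosis pathway was described from lists, and no gene of them passed over all genes tested in any comparison by edgeR. Of 9 other BCL2 family genes, 4 could be tested. Bmf, which encodes a BH3-only protein tied to the cytoskeleton, had 0 and 0 CPM in SiglecFhi/CD101+ libraries, 21.8 and 39.0 CPM in Siglec-Fint/CD101- libraries, and 44.3, 21.9, 14.0 and 22.0 CPM in resident libraries. Against 3 counts over the SiglecFhi/CD101+ group, Bmf was at least 26.5-fold lower than in resident and at least 36.8-fold lower than in Siglec-Fint/CD101- libraries (adjusted p = 0.118 and 0.172 by edgeR). Of all genes tested, 27.4% lay wholly below resident libraries in SiglecFhi/CD101+, and 11.9% wholly below Siglec-Fint/CD101- libraries. Bmf had the smallest p of its list in both comparisons, and the part of depth in its zeros was not tested. For Siglec-Fint/CD101- against resident, the ranges of Bmf overlapped. The list as a whole did not follow Bmf. For SiglecFhi/CD101+ against resident, the log2 fold change was -0.69 ± 1.71 for Bak1, 0.75 ± 1.91 for Bid and -0.29 ± 1.38 for Bad (adjusted p = 0.878, 0.883 and 0.943 by edgeR). The list median was -0.49 there, beside -0.72 for all genes.

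Of 11 caspase and apoptosome genes, 10 were tested. At an unadjusted p under 0.05 by edgeR, 5 were lower and 0 higher in SiglecFhi/CD101+ against resident libraries (13.1% and 3.65% of all genes). In Siglec-Fint/CD101- against resident libraries, 0 were lower and 0 higher (13.8% and 1.9% of all genes). Between the subsets, 4 were lower and 0 higher in SiglecFhi/CD101+ (7.96% and 9.98% of all genes). Casp8, the initiator caspase of death receptors, was at 0.527 and 1.81 CPM in SiglecFhi/CD101+ libraries, 2.18 and 91.7 CPM in Siglec-Fint/CD101- libraries, and 21.0, 135, 45.3 and 83.4 CPM in resident libraries, with a log2 fold change of -5.92 ± 1.61 for SiglecFhi/CD101+ against resident (adjusted p = 0.146). Casp6, an executioner caspase, had 0 counts in both SiglecFhi/CD101+ libraries, 31.9 and 36.6 CPM in Siglec-Fint/CD101- libraries and 11.3 to 29.8 CPM in resident libraries. This placed SiglecFhi/CD101+ libraries at least 23.8-fold below resident ones (adjusted p = 0.129). The genes named are those of smallest p, and the list as a whole was mixed, with 6 negative and 4 positive fold changes in SiglecFhi/CD101+ against resident libraries, beside 63.9% negative for all genes. Its median log2 fold change was -2.36 for SiglecFhi/CD101+ against resident with genes at 0 counts set to their limit, and -6.21 as fitted, beside -0.72 for all genes.

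Among the regulators upstream of the family, detection varied in each subset. Stat5a, Nfkbie and Trp53inp1 had 0 counts in SiglecFhi/CD101+ libraries. In Siglec-Fint/CD101- replicates 1 and 2, Stat5a was at 22 and 0 counts, Nfkbie at 39 and 0, and Trp53inp1 at 0 and 22. Sesn2 and Zmat3 went the other way, with no count in Siglec-Fint/CD101- libraries. In SiglecFhi/CD101+ replicates 1 and 2, Sesn2 was at 0 and 95 counts and Zmat3 at 0 and 4. Fewer genes had a count in subset libraries (7356 to 10834) than in resident libraries (12700 to 15997). The part of depth in these zeros was not tested. Cdkn1a, the p53 target that encodes the cell cycle inhibitor p21, was at 365 and 394 CPM in SiglecFhi/CD101+ libraries, 561 and 573 CPM in Siglec-Fint/CD101- libraries, and 827, 1203, 579 and 839 CPM in resident libraries. The 3 groups did not overlap, though the higher Siglec-Fint/CD101- value (573 CPM) nearly met the lowest resident value (579 CPM). Of all genes, 27.4% lay wholly below resident libraries in SiglecFhi/CD101+ and 29.2% in Siglec-Fint/CD101-. Between the subsets, 11.9% lay wholly lower in SiglecFhi/CD101+. The log2 fold change of Cdkn1a was -1.18 ± 0.39 for SiglecFhi/CD101+ against resident (adjusted p = 0.214 by edgeR) and -0.61 ± 0.38 for Siglec-Fint/CD101- against resident (adjusted p = 0.408). Of 9 tested p53 genes, 2 were lower and 0 higher at an unadjusted p under 0.05 in SiglecFhi/CD101+ against resident (13.1% and 3.65% of all genes), and 1 was lower and 0 higher in Siglec-Fint/CD101- against resident (13.8% and 1.9%). Csf2ra, the GM-CSF receptor subunit, was at 0.527 and 12.7 CPM in SiglecFhi/CD101+ libraries, 228 and 34.1 CPM in Siglec-Fint/CD101- libraries, and 198, 168, 174 and 222 CPM in resident libraries, and had the lowest adjusted p of the cytokine list for SiglecFhi/CD101+ against resident (0.111 by edgeR). Csf2rb, the common receptor chain of IL-3, IL-5 and GM-CSF, was at 62.7 and 89.4 CPM in SiglecFhi/CD101+ libraries, 68.9 and 74.4 CPM in Siglec-Fint/CD101- libraries, and 201, 178, 105 and 234 CPM in resident libraries (log2 fold changes -1.23 ± 0.59 and -1.33 ± 0.59 against resident, adjusted p = 0.301 and 0.310). Socs2, a feedback inhibitor of cytokine signalling, was at 71.1 and 108 CPM in SiglecFhi/CD101+ libraries, 9.43 and 2.48 CPM in Siglec-Fint/CD101- libraries, and 99.98, 26.7, 46.7 and 38.3 CPM in resident libraries. Its Siglec-Fint/CD101- values were the lowest, as for Bcl2a1a, with a log2 fold change of 3.92 ± 1.12 for SiglecFhi/CD101+ against Siglec-Fint/CD101- libraries (adjusted p = 0.214).

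The list of NF-kB genes held subunits of this factor family, known to drive Bcl2a1 and Birc3 transcription, and its inhibitors (Nfkbia, Nfkbib, Nfkbie and Tnfaip3). Fold changes were negative in 9 of 9 tested genes of the list for SiglecFhi/CD101+ and in 8 of 9 for Siglec-Fint/CD101- against resident libraries. Beside them stood 63.9% and 66.9% of all genes. Since subunits and inhibitors are counted together, these counts give no direction for NF-kB activity, which was not tested. Nfkb1 was at 100.04 and 123 CPM in SiglecFhi/CD101+ libraries, 95.7 and 88.0 CPM in Siglec-Fint/CD101- libraries, and 218, 272, 119.8 and 254 CPM in resident libraries, with a log2 fold change of -1.24 ± 0.55 for Siglec-Fint/CD101- against resident (adjusted p = 0.310). Birc3, an inhibitor of apoptosis protein, was at 50.5 and 97.3 CPM in SiglecFhi/CD101+ libraries, 48.6 and 37.2 CPM in Siglec-Fint/CD101- libraries, and 127, 148, 51.8 and 111 CPM in resident libraries. Its log2 fold change was -1.36 ± 0.71 for Siglec-Fint/CD101- against resident (adjusted p = 0.346). The list medians for SiglecFhi/CD101+ against resident were -1.50 for the NF-kB genes, -0.21 for the 8 tested inhibitors of apoptosis, -0.58 for the 9 tested death receptor genes, -0.12 for the p53 genes and -0.84 for the 11 tested cytokine signalling genes, with genes at 0 counts set to their limit. For Siglec-Fint/CD101- against resident they were -1.24, 0.74, 0.28, -0.14 and -1.03 in the same order.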

How the data were processed

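The deposited tables hold raw counts for each Ensembl identifier, in whole numbers whose totals differ between libraries. Among the tools that the submitters' processing notes list are FastQC 0.11.5, cutadapt 1.10 with Trim Galore, TopHat2 2.1.0, Bowtie2 2.2.6, HTSeq 0.6.1 and DESeq2 1.28.0. The genome build, strand setting, handling of reads shared by genes and use of molecular identifiers were not given in the sources used here. Counts may hold amplification copies, and intervals cover counting error only. Symbols and positions come from GENCODE M21 (GRCm38), which matched 54409 of 54446 identifiers.

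The fits used edgeR 4.0.16 under R 4.3.3, with TMM scaling, the filter of filterByExpr and 1 mean per group across the 8 libraries. Robust quasi-likelihood tests were two-sided, and a gene was called where its Benjamini-Hochberg adjusted value was under 0.05. The SE was taken as the size of the fold change (log2) over root F. The fits were tested on simulated data. Alternatives were RLE, upper-quartile or no factors, mitochondrial genes left out, no filter, DESeq2 1.42.0, thinning to 444902 counts outside the mitochondrial genome, compared groups only, a replicate block, and each library left out. Members and lists were chosen with earlier results of these data known. All members are named, and from each other list up to 4 genes per comparison with the smallest p could be named. The 3 genes most like Mcl1 were named by root-mean-square difference.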

Additional observations from a re-analysis of the deposited data

Results flagged for a closer look

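Of 21 sets of 4 resident values examined (members, paralog sum, marker sums and shares), 1 held a library far from the other 3. Bbc3 was at 3.00, 2.82 and 2.65 CPM in resident replicates 3, 4 and 6 and at 0.348 CPM (5 counts) in replicate 5. The gap to the nearest library was 0.868 of the whole range, above Dixon's 95% critical value for 4 samples. Chance flags about 1 in 20 such sets.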

How the results depend on the processing

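The count of 0 members called held in all 3 comparisons with RLE, upper-quartile or no factors, mitochondrial genes left out, thinning, compared groups only and each library left out (range 0 to 0). With DESeq2 it was 1 for SiglecFhi/CD101+ against resident (Pmaip1), 1 for Siglec-Fint/CD101- against resident (Bcl2a1a) and 2 between the subsets (Bcl2 and Pmaip1), and without a filter it was 1 for Siglec-Fint/CD101- against resident (Bcl2a1a). Of 428 member fold changes under alternatives, 414 kept direction and side, 5 were past the threshold, all among these calls, and 9 changed sign. Those that changed sign were Bcl2 for SiglecFhi/CD101+ against resident with no factors (-0.19) and without SiglecFhi/CD101+ replicate 1 (-9.18, fitted against 0 counts; 1.91 without replicate 2), Bcl2l1 there with 1 library left out (-3.62 to 0.24), Bbc3 for Siglec-Fint/CD101- against resident with 1 library left out (-1.86 to 2.37), and between the subsets Bcl2l1 (-2.85 to 1.34, with -0.54 without Siglec-Fint/CD101- replicate 1, and -0.40 with the replicate block), Bcl2l11 (-3.21 to 0.64) and Bax (-0.47 to 10.003, the last fitted against 0 counts). The paralog sum between the subsets ranged from -0.19 to 3.63 with 1 library left out, and the Pmaip1 share for Siglec-Fint/CD101- against resident ran from -0.820 to 1.87 percentage points. The causes were not tested.

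The subsets share only replicate numbers 1 and 2, whose deviations had a correlation of 0.00693. A fit with the replicate block tested 5490 genes and called 4, against 0 of 5490 for the same libraries without it, and 0 of the 6 members it tested, Bcl2a1a at 3.52. Over all genes, calls were 3, 7 and 1 in the 3 comparisons, 907, 653 and 1270 with DESeq2, 370, 136 and 85 with no filter, and from 1 to 133, 0 to 9 and 0 to 2 with 1 library left out. The all-gene median moved between -1.46 and -0.18 and between -1.96 and -0.33 against resident with other settings, and to -3.15 and -4.42 with a subset library left out.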
